A study of Mus musculus with 18 samples.

Results

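Solute carriers are membrane proteins that move ions, metals, nutrients and metabolites across the plasma membrane and the membranes of organelles. The genes described here are the solute carriers outside the mitochondrial SLC25 family and outside a set of 18 carriers well known in red cells, activated blood cells or growing cells, such as the anion exchanger Slc4a1 and the glucose carrier Slc2a1, which were left out by name. A gene was taken in when its symbol had the form Slc, a family number, a and a member number. Of 258 such genes with a probe set of their own, 159 passed a filter on dim signal, which asked for a value above the 40th percentile of its array on at least 3 of the 18 arrays. These 159 were among 12720 tested genes in all. Of the 159, 5 have symbols that contain the name of a carrier but are not carriers themselves (Slc4a1ap, Slc7a6os, Slc9a3r1, Slc9a3r2 and Slc2a4rg-ps), which leaves 154 carriers.

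Solute carrier families are numbered by sequence likeness, and most members of a family carry related substrates, although exceptions are common. In maturing red cells the best known carriers serve iron uptake, anion exchange and glucose entry, while dividing cells rely on carriers of amino acids, folates and nucleosides. Zinc is moved into the cytosol by SLC39 (ZIP) proteins and out of it by SLC30 (ZnT) proteins, so the families work in opposite directions.

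The cells were G1E-ER4, a single mouse erythroid line derived from embryonic stem cells whose Gata1 gene was disrupted, carrying a fusion of GATA1 with the ligand-binding part of the estrogen receptor. GATA1 is a main transcription factor of red cell development, and estradiol switches the fusion protein on. Total RNA was hybridised to Affymetrix arrays at 0, 3, 7, 14, 21 and 30 h in 20 nM estradiol, with 3 arrays at each time. The 0 h cells had the same genotype and had not been given estradiol. No untreated arrays at the later times were used, so time in culture and time in estradiol cannot be told apart. The replicates were labelled as biological, without a statement that they came from separate cultures, so each p-value reflects only how far these arrays spread, which may be partly technical. In bulk RNA, fewer cells of a type and less RNA per cell cannot be told apart.

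Array medians lay between 4.04 and 4.09 on the deposited log2 scale, the highest value was 14.37, the 40th percentile lay between 3.20 and 3.35, and no pair of arrays held identical values. Of 8 erythroid marker genes 6 were tested, and 3 of them rose by 30 h and none fell. The mean log2 value over those 6 markers went from 8.74 on all 3 arrays at 0 h to between 10.05 and 10.13 at 30 h. Much of that came from Alas2, which rose by 6.49, while the median change of the 6 was 0.31. The mean over 6 tested mast cell and basophil markers of 8 went from between 5.37 and 5.58 to between 3.38 and 3.47, with 4 lower and 1 higher. Over 4 tested megakaryocyte markers of 7 it went from between 6.54 and 6.57 to between 5.05 and 5.14, with 2 lower (Pf4 and Gp5) and 1 higher (Gp9). The fall in the means of those lists moved with the results below and its part in them was not tested. Array signal on control transcripts was also steeper toward the 3′ end late in the series: the 3′ minus 5′ gap was 1.89 ± 0.0842 at 0 h and 2.20 ± 0.112 at 30 h for Actb, and 1.13 ± 0.0652 and 1.52 ± 0.155 for Gapdh (log2, SD, n = 3). Its part in the results was not tested.

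By 30 h, 70 of the 159 genes were called higher than at 0 h, 43 lower, and 46 were not called (limma, adjusted p under 0.05 over all 12720 tested genes). Among all tested genes 69.5% were called, 36.6% higher and 33.0% lower and the 71.1% of the 159 called was near that background. Without the 5 that carry nothing, 68 of 154 were higher and 41 lower. The median log2 change was 0.26 for the 159 genes and 0.09 for all tested genes. A change of at least 2-fold was called for 25 of the 159 that rose, against a background of 9.16% of all genes, and for 21 that fell, against 13.1%. When each array was shifted to equal hybridisation controls, the 30 h counts became 83 higher and 32 lower, and the median of all genes moved from 0.09 to 0.30. The direction of every one of the 113 called genes was kept under that shift, and 101 of them stayed called.

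**Figure D1:**
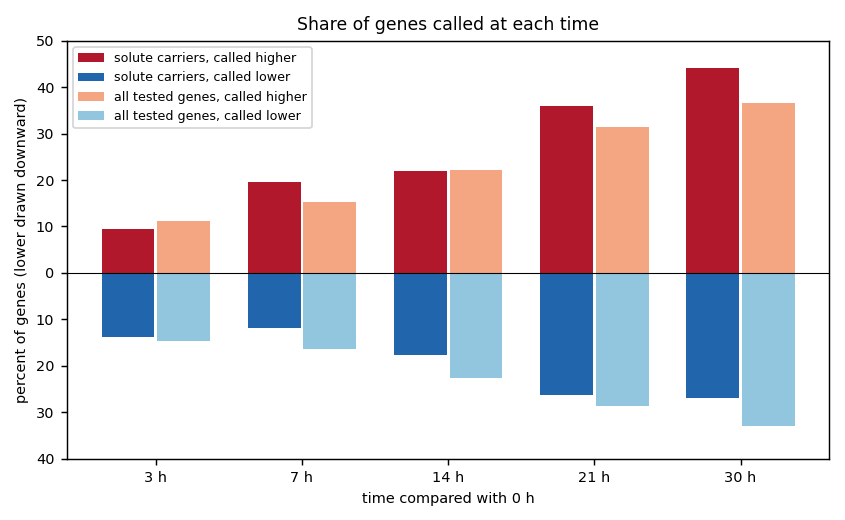
Percent of the 159 genes (dark bars, in the key as solute carriers) and of all tested genes (pale bars) called higher (red, upward) or lower (blue, downward, drawn below 0) than at 0 h, for each later time, with 3 arrays a time. At 3 h 15 of 159 genes were higher and 22 lower, and at 30 h 70 were higher and 43 lower; the pale bars reach 36.6% and 33.0% at 30 h.

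The counts grew with time. At 3 h, 15 of the 159 genes were higher and 22 lower (all genes 11.2% and 14.7%). At 7 h, 31 were higher and 19 lower (all genes 15.3% and 16.3%), at 14 h 35 and 28 (22.2% and 22.7%), and at 21 h 57 and 42 (31.4% and 28.6%). Shifted to equal hybridisation controls, the counts were 8 and 4 at 3 h, 11 and 10 at 7 h, 38 and 17 at 14 h and 40 and 29 at 21 h. Over the whole time course 110 of the 159 changed by the moderated F test, against 74.3% of all tested genes. The 5 comparisons share the 0 h arrays and are not independent of each other.

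Of the 70 genes higher at 30 h, 15 were already called at 3 h, 16 first at 7 h, 6 at 14 h, 19 at 21 h and 14 only at 30 h. For Slc10a3, Slc19a2, Slc20a1, Slc22a4 and Slc40a1 the earlier call was in the other direction. Of the 43 lower at 30 h, 20 were called at 3 h, 5 first at 7 h, 10 at 14 h, 6 at 21 h and 2 only at 30 h; Slc26a1 and Slc29a1 were higher at 3 h. Many of the 3 h calls are small: 12 of the 37 stayed called when arrays were shifted to equal hybridisation controls, with no direction turned. In all, 9 genes were called higher at every later time (Slc12a4, Slc16a10, Slc22a23, Slc2a8, Slc30a10, Slc30a9, Slc31a1, Slc38a10 and Slc46a3) and 12 lower at every later time, among them Slc19a1, Slc2a2, Slc30a2, Slc39a10, Slc41a3 and Slc48a1. Of the named ones, Slc22a23, Slc2a8, Slc30a9, Slc38a10, Slc19a1, Slc39a10 and Slc48a1 lost the 3 h call under equal hybridisation controls. A further 37 genes were called at no time. Such patterns over time were not counted among all tested genes, so no background share can be set beside them.

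**Figure D2:**
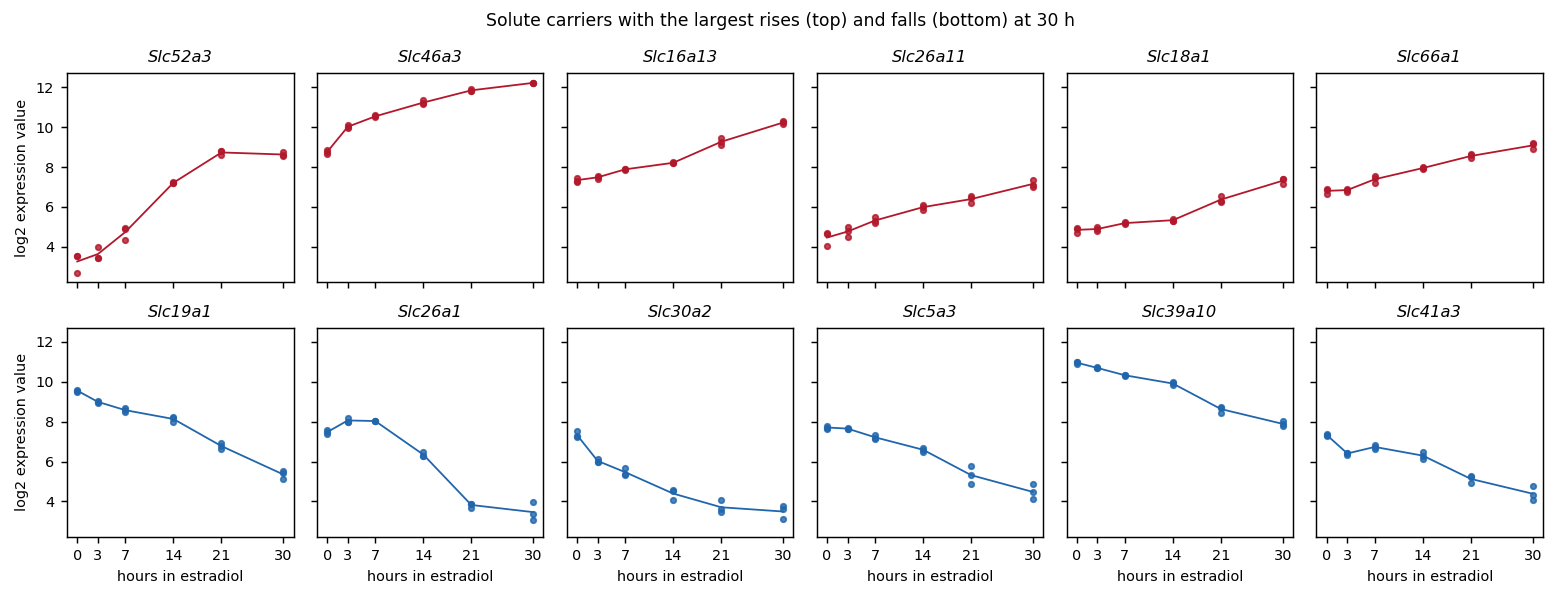
Deposited log2 value on each array (points, 3 per time) and the mean at each time (line) against hours in estradiol, for the 6 carriers with the largest rises (top, red) and the 6 with the largest falls (bottom, blue) at 30 h among those whose arrays do not overlap. Slc52a3 starts at 3.27 on average and ends at 8.62, and Slc19a1 goes from 9.54 to 5.36.

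Carriers of vitamins, nucleosides and choline held the largest movements at both ends. Of 19 tested in this group (22 measured), 8 rose and 7 fell by 30 h (all genes 36.6% and 33.0%), with a median of 0.18 on the log2 scale. Genes above the 40th percentile on only some arrays made up 3 of the rises and 1 of the falls. Slc28a3, among those rises, was above it on 3 arrays and on none at 0 h, so its rise is tied to the filter. Slc52a3, a riboflavin importer, read 3.55, 2.72 and 3.55 at 0 h, close to the 40th percentile of the arrays, and 3.47, 3.44 and 4.02 at 3 h. It read 4.36, 4.91 and 4.97 at 7 h, 7.25, 7.21 and 7.18 at 14 h, 8.79, 8.79 and 8.60 at 21 h and 8.53, 8.62 and 8.73 at 30 h. The arrays from 7 h on lay above every 0 h array, and the level reached at 21 h did not differ in test from that at 30 h (log2 difference -0.10, adjusted p = 0.734). The rise at 30 h was 5.35 ± 0.207 (SE) on the log2 scale; since a 0 h array lay below its 40th percentile, the fold is given as a bound, at least 36.3-fold higher with that array set at its percentile, with limma's adjusted p = 1.61e-12; a ± after a log2 difference is its SE throughout. Rfk and Flad1, which turn riboflavin into its cofactors, had log2 differences of 0.10 (adjusted p = 0.158) and 0.06 (adjusted p = 0.559) at 30 h.

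Slc19a1, the reduced folate carrier, ran the opposite way. Its values were 9.55, 9.49 and 9.59 at 0 h, 9.05, 8.97 and 8.93 at 3 h, and 8.69, 8.56 and 8.45 at 7 h. They were 7.995, 8.16 and 8.23 at 14 h, 6.91, 6.65 and 6.75 at 21 h and 5.54, 5.12 and 5.41 at 30 h. Every array lay below all arrays of the time before it. Slc19a1 was 1 of 3 carriers called in the same direction at all 5 steps, with Slc39a10 and Slc46a3 (not counted among all tested genes). Under equal hybridisation controls the step from 3 h to 7 h was not called (adjusted p = 0.141), nor was the 3 h fall (adjusted p = 0.194). The 30 h difference was -4.19 ± 0.102 (SE), an 18.3-fold fall (adjusted p = 7.45e-15), and 2 further probe sets of the gene gave -3.67 and -4.04. The list of enzymes that use riboflavin and folate held 10 genes, of which 6 were tested. None rose and 4 fell at 30 h (all genes 36.6% and 33.0%). Among the 4 were Fpgs, which adds the glutamate tail that keeps folates in the cell (-2.62), and Mthfd1, an enzyme of single-carbon transfer (-2.24). Rfk and Flad1 are the 2 of that list that were not called.

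Slc46a3, a lysosomal carrier related to the proton-coupled folate transporter, rose at each step. It read 8.76, 8.67 and 8.83 at 0 h, 10.09, 10.02 and 9.93 at 3 h, and 10.58, 10.54 and 10.49 at 7 h. It then read 11.34, 11.13 and 11.20 at 14 h, 11.80, 11.82 and 11.89 at 21 h and 12.20, 12.22 and 12.21 at 30 h. Arrays of neighbouring times did not overlap at any step. Its 3 h rise of 1.26 (adjusted p = 2.58e-09) was the largest of the carriers at that time, and its 30 h rise was 3.45 ± 0.0631, or 11.0-fold (adjusted p = 3.68e-16).

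All 3 tested SLC29 equilibrative nucleoside transporters were lower at 30 h, as were 33.0% of all genes: Slc29a1 by -1.67, Slc29a2 by -1.16 and Slc29a3 by -0.81, under each of the 3 array scalings. Another probe set of Slc29a3, which was dim, had a difference of 0.03 and was not called. Slc29a1 read 6.26, 5.95 and 6.08 at 0 h, 6.53, 6.42 and 6.48 at 3 h, 5.83, 5.78 and 5.65 at 21 h and 4.40, 4.24 and 4.62 at 30 h, so it lay above the 0 h arrays at 3 h and below them from 21 h. Its early rise of 0.38 (adjusted p = 0.0204) was not called under equal hybridisation controls (adjusted p = 0.175). Among SLC44 choline transporter-like genes, Slc44a2 rose from 9.55, 9.54 and 9.64 to 11.73, 11.65 and 11.72 at 30 h (2.13, adjusted p = 4.77e-12), Slc44a4 also rose, and Slc44a1 and Slc44a3 fell (-0.94 and -0.99). Slc44a3 was above the percentile on 6 arrays and below it on all 3 at 30 h, so it passed the filter through the earlier arrays and its fall is tied to that. The Slc44a2 arrays from 7 h on did not overlap those at 0 h, with 0.99 of the rise between 3 h and 7 h. Of 10 tested genes of choline and nucleoside use, 6 rose and 4 fell (all genes 36.6% and 33.0%). Chka, the main choline kinase, changed by -2.04 and Pcyt1a, which makes CDP-choline, by 1.83. Slc23a3, an orphan relative of the vitamin C carriers, rose by 1.37 while Slc23a2, a vitamin C importer, fell (-1.19).

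Among carriers of metals and heme more members fell than rose, with 7 higher and 12 lower of 25 tested (30 measured), against 36.6% and 33.0% of all genes. The lean depended on scaling, since the counts were 8 and 11 after quantile normalization and 7 and 7 under equal hybridisation controls. Within SLC39, 2 of 12 rose and 6 fell (2 and 4 under equal controls), and within SLC30, 2 of 7 rose and 3 fell (2 and 1). Slc39a8 and Slc30a1 were left out by name and are not in these counts.

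Slc39a10, a ZIP zinc importer of the plasma membrane, fell at every step. It read 10.86, 10.97 and 11.001 at 0 h, 10.66, 10.71 and 10.67 at 3 h and 10.29, 10.31 and 10.34 at 7 h. It read 9.81, 9.98 and 9.90 at 14 h, 8.70, 8.73 and 8.43 at 21 h and 7.88, 8.01 and 7.76 at 30 h. No arrays of neighbouring times overlapped, and the steepest step was from 14 h to 21 h (-1.28). The 30 h change was -3.06 ± 0.0808, an 8.35-fold fall (adjusted p = 1.90e-14), and its other probe set gave -4.07. The 3 h fall of -0.26 was not called under equal hybridisation controls (adjusted p = 0.791).

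A promoter of Slc39a10 is shown because it holds a GATA-type motif, AGATAA, the letters that GATA factors are known to recognise. The window runs from 250 bases before to 50 after the annotated start, from RefSeq on GRCm38.p6, minus strand. It lies at chr1:46925727-46926026 and the capitals mark the motif as read on the opposite strand (TTATCT), whose first base is 111 bases before the start. A promoter of Slc26a1 at chr5:108675316-108675615, also on the minus strand, is set beside it with its TTATCT 177 bases before the start, as another gene that fell with the motif. Slc29a1 and Slc7a7 are the others among the genes lower at 30 h. Each of these 4 genes also has an annotated start whose window lacks AGATAA. For Slc39a10 and Slc26a1 that window lacks TGATAA too.
Slc39a10: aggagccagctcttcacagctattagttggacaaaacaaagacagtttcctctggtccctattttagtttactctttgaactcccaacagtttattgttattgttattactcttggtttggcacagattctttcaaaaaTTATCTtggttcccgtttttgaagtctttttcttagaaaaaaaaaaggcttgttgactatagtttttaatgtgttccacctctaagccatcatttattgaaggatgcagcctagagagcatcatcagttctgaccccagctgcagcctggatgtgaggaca
Slc26a1: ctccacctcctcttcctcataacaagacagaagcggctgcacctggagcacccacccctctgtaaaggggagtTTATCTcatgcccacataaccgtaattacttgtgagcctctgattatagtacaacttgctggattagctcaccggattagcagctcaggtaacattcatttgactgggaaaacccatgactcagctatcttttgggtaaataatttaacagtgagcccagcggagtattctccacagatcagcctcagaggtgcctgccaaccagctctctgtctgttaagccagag
RefSeq promoters were found for 124 of the 159 genes, 161 promoters in all because some genes have several starts. Both strands were searched. AGATAA was in 8.70% of the 161 promoters, 13.3% of those of genes higher at 30 h and 8.47% of those of genes lower, against 11.2% of all 32851 promoters in the table. Counted by gene, it was in 15.1% of the higher and 11.1% of the lower genes, against 12.7% of all. TGATAA, a related form, was in 4.35% against 9.05%. A match is a description of the letters in the window and not a site or a cause.

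Other zinc carriers moved as far. Slc30a2, a ZnT zinc exporter into vesicles, read 7.27, 7.20 and 7.50 at 0 h and 5.99, 6.13 and 5.97 at 3 h, the largest early fall among the carriers (-1.30, adjusted p = 8.19e-05). It read 4.54, 4.06 and 4.59 at 14 h and 3.60, 3.78 and 3.11 at 30 h, close to the 40th percentile of the arrays. Every array after 0 h lay below the 0 h arrays, and the 30 h change was -3.83 ± 0.184 (at least 13.5-fold lower, with the 30 h array below its 40th percentile set at it; adjusted p = 2.04e-11). Slc39a11 fell by 2.86 and Slc39a6 by 2.26; these are ZIP importers too. Slc39a6 read 7.35, 7.23 and 7.48 at 0 h and 5.24, 4.71 and 5.33 at 30 h, without overlap, but its other 2 probe sets, which were dim, had differences of -0.08 and 0.02 and were not called. Slc39a7, a ZIP of the endoplasmic reticulum and Golgi, and Slc39a1 fell by smaller amounts (-0.93 and -0.50), the latter not called under equal hybridisation controls (adjusted p = 0.188).

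The rises in SLC30 were those of Slc30a10, a manganese exporter, and Slc30a9, and in SLC39 those of Slc39a13 and Slc39a12, the last above the percentile on 3 arrays only. Slc30a10 read 9.13, 9.18 and 9.22 at 0 h, between 9.89 and 10 at 3 h, 10.56, 10.71 and 10.64 at 14 h and 10.24, 10.20 and 10.31 at 30 h. All arrays after 0 h were above the 0 h arrays, and the level at 30 h was lower than at 21 h (-0.29, adjusted p = 0.00119). The change was 0.76 at 3 h and 1.07 at 30 h. Slc39a13, a ZIP of the early secretory pathway, rose by 1.20 and Slc30a9 by 0.87.

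Both copper carriers of the SLC31 family rose. Slc31a1, the high-affinity copper importer CTR1, read 8.79, 8.64 and 8.72 at 0 h, 9.31 on each of the 3 arrays at 3 h and 10.43, 10.35 and 10.34 at 30 h, with no overlap with 0 h at any time (1.65 ± 0.062, adjusted p = 1.10e-12). Another probe set gave 2.0045. Slc31a2 rose by 1.03, called first at 30 h. Genes of metal and heme handling, a list of 9 with 8 tested, had 7 higher and 1 lower (all genes 36.6% and 33.0%), and 6 and 1 under equal hybridisation controls. Atp7a, a copper pump, rose by 1.74 and the heme-degrading enzyme Hmox1 by 1.79 after a 3 h fall of -1.20. The copper chaperone Atox1 fell (-0.83).

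Slc48a1, which carries heme out of endosomes and lysosomes, read 10.31, 10.34 and 10.46 at 0 h, 9.82, 9.74 and 9.76 at 3 h and 8.82, 8.70 and 8.84 at 30 h. Its arrays at all later times were below those at 0 h, and it fell by 1.58 at 30 h (adjusted p = 1.62e-12), with no called change after 21 h (0.02, adjusted p = 0.788). Slc40a1, the iron exporter ferroportin, read 10.19, 10.33 and 10.37 at 0 h, 10.14, 10.13 and 9.95 at 21 h and 10.60, 10.60 and 10.55 at 30 h. It was called lower at 21 h (-0.23, adjusted p = 0.0121) and higher at 30 h (0.29, adjusted p = 0.00204), both small. Another probe set of Slc40a1 did not show the 30 h rise (-0.13, limma adjusted p = 0.223). The SLC41 magnesium carriers were both lower: Slc41a3 went from 7.31, 7.30 and 7.38 to 4.75, 4.08 and 4.33 (-2.94, adjusted p = 1.27e-11), while Slc41a1 changed by -0.42 and was not called after quantile normalization (adjusted p = 0.080) or under equal hybridisation controls (adjusted p = 0.346).

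Carriers of ions had 9 higher and 2 lower of 19 tested (40 measured, all genes 36.6% and 33.0%), and the same 9 and 2 under both other scalings. Of the 19, 57.9% were called against 69.5% of all genes. Genes above the 40th percentile on only some arrays made up 2 of the rises and 1 of the falls. The SLC26 anion transporters went both ways. Slc26a1, a sulfate and oxalate exchanger, read 7.56, 7.38 and 7.47 at 0 h, 7.998, 8.20 and 7.97 at 3 h and 8.02, 8.02 and 8.04 at 7 h. It read 6.27, 6.47 and 6.30 at 14 h, 3.89, 3.90 and 3.69 at 21 h and 3.36, 3.08 and 3.96 at 30 h. The 3 h and 7 h arrays were all above 0 h and those from 14 h all below, with a rise of 0.59 at 3 h (adjusted p = 0.0106) and a change of -4.002 by 30 h (at least 15.1-fold lower by the same bound, adjusted p = 1.48e-12); another probe set gave -4.22. Slc26a11, a lysosomal anion carrier, rose from 4.70, 4.66 and 4.05 to 7.37, 6.98 and 7.11 (2.68 ± 0.168, adjusted p = 5.66e-10), and its arrays did not overlap those of 0 h from 7 h on. Slc26a6 fell (-0.76) and Slc26a2 rose by 0.38.

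Slc12a4, the potassium-chloride cotransporter KCC1 of red cells, rose early and stayed high. It read 6.71, 6.56 and 6.81 at 0 h, 7.59, 7.74 and 7.70 at 3 h and 8.25, 7.995 and 7.98 at 7 h. At 14 h it read 8.09, 8.34 and 8.30 and at 30 h 7.97, 7.76 and 7.97. All arrays after 0 h were above the 0 h arrays; the change was 0.98 at 3 h (adjusted p = 1.67e-06), 1.55 at 14 h and 1.21 at 30 h. Of 9 tested genes of ion pumps, channels and cell volume control (11 listed), 4 were higher and 3 lower at 30 h (all genes 36.6% and 33.0%). The counts were 1 and 2 under equal hybridisation controls. Atp2b4, a calcium pump of the plasma membrane, rose by 2.39 and its relative Atp2b1 fell (-0.95). None of the 3 tested SLC4 carriers was called at 30 h, although Slc4a2, a widely expressed anion exchanger, fell at 3 h (-0.65, adjusted p = 0.000345; adjusted p = 0.088 under equal controls).

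**Figure D3:**
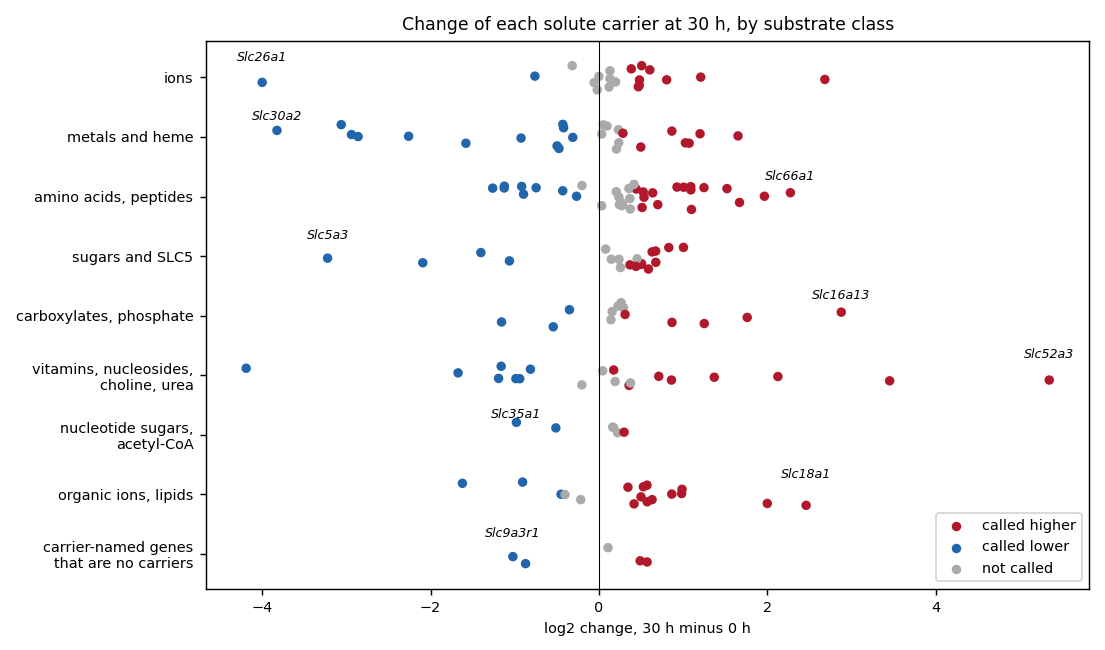
Log2 change at 30 h minus 0 h for each of the 159 genes, in rows by substrate class (vertical scatter within a row has no meaning), red for called higher, blue for called lower and grey for not called; the gene with the largest change of each class is named. Vitamins, nucleosides and choline span from -4.19 to 5.35, and organic ions and lipids hold 12 red points of 17.

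Carriers of amino acids and peptides were the largest group, with 36 tested of 66 measured: 16 rose and 8 fell (all genes 36.6% and 33.0%), and 23 and 6 under equal hybridisation controls. The share called was 66.7% against 69.5% of all genes. All 5 tested SLC38 genes, carriers of small neutral amino acids or of lysosomal ones, rose by 30 h under each scaling: Slc38a9, which senses arginine at the lysosome, by 1.09, Slc38a6 by 1.01, Slc38a7 by 0.93, Slc38a10 by 0.70 and Slc38a3 by 0.51. Only Slc38a10 of these was called before 21 h. Slc66a1, which exports cationic amino acids from the lysosome, read 6.84, 6.66 and 6.91 at 0 h and 9.14, 8.92 and 9.18 at 30 h, without overlap from 7 h on (2.27, adjusted p = 5.43e-12). Slc17a5, the sialic acid exporter sialin, read 5.76, 5.60 and 5.58 at 0 h and 7.64, 7.64 and 7.55 at 30 h (1.97, adjusted p = 7.26e-13), again without overlap from 7 h on. Slc36a1, a proton-coupled amino acid carrier of lysosomes and plasma membrane, rose by 1.52.

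At the cell surface, Slc43a2, a carrier of large neutral amino acids, changed mainly in a single interval. It read 5.56, 5.46 and 5.79 at 0 h, 5.73, 5.96 and 5.75 at 3 h, 6.87, 6.86 and 6.85 at 7 h and 7.28, 7.17 and 7.37 at 30 h. The 7 h arrays were all above those at 3 h (1.05, adjusted p = 9.53e-07), and the 30 h rise was 1.67. Slc43a3, a nucleobase carrier of the same family, rose by 1.10, and Slc15a2, a peptide importer, by 1.248. Slc7a8, another carrier of large neutral amino acids, dipped: it read 8.79, 8.82 and 8.68 at 0 h, 6.96, 7.08 and 6.99 at 21 h and 7.76, 8.03 and 7.74 at 30 h. Its arrays at 21 h were below all those at 14 h and 30 h, with steps of -0.81, -0.76 and 0.84 after 7 h; the step to 14 h was not called under equal hybridisation controls (adjusted p = 0.063). Slc1a4, a neutral amino acid exchanger, fell chiefly after 21 h, from 8.14, 8.34 and 8.02 to 7.17, 7.28 and 7.25 (-0.94, adjusted p = 3.71e-07). Slc6a8, the creatine carrier, fell (-1.12), as did Slc7a7 (-1.13) and Slc7a11, the cystine importer (-0.90); Slc7a11 was above the percentile on 3 arrays only, and both Slc7a7 and Slc7a11 were below it on all 3 at 30 h.

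Among SLC2, SLC5, SLC37 and SLC45 genes, mostly sugar carriers, 10 rose and 4 fell of 19 tested (31 measured; all genes 36.6% and 33.0%), 73.7% called against 69.5% of all genes. The largest changes were falls, and several of the genes carry no glucose. Slc5a3, the sodium-coupled myo-inositol carrier, read 7.78, 7.70 and 7.63 at 0 h, 6.47, 6.60 and 6.70 at 14 h, 5.76, 5.31 and 4.88 at 21 h and 4.45, 4.11 and 4.88 at 30 h. Its arrays were below 0 h from 7 h on, and the change was -3.22 ± 0.185 (9.35-fold, adjusted p = 1.92e-10); another probe set gave -1.24. Slc5a6, an importer of biotin and pantothenate, fell by 1.40. Slc2a2, the low-affinity glucose carrier GLUT2, read 6.20, 5.85 and 6.21 at 0 h, 5.38, 5.42 and 5.37 at 3 h and 3.99, 3.99 and 4.01 at 30 h, with every later array below 0 h (-0.70 at 3 h and -2.09 at 30 h). Slc37a4, the glucose-6-phosphate carrier of the endoplasmic reticulum, fell at every time, by 1.06 at 30 h, while Slc2a8, an intracellular glucose carrier, rose at every time, by 1.004 at 30 h; the 3 h calls of both were lost under equal hybridisation controls (adjusted p = 0.580 and 0.134). Of 8 tested genes of glucose and lactate use (9 listed), 5 were higher and 3 lower; Hk2, a hexokinase, changed by -2.51 and Ldha, a subunit of lactate dehydrogenase, by -2.36.

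Carriers of carboxylates and phosphate had 5 higher and 3 lower of 13 tested (21 measured, all genes 36.6% and 33.0%). In SLC16, without Slc16a1 and Slc16a3, which were left out by name, 4 of 8 rose and none fell. The SLC16 counts were 5 and 0 under quantile normalization and 6 and 0 under equal hybridisation controls. Slc16a13, a monocarboxylate transporter family member, read 7.29, 7.26 and 7.47 at 0 h, 8.19, 8.22 and 8.23 at 14 h, 9.45, 9.23 and 9.11 at 21 h and 10.28, 10.14 and 10.25 at 30 h. Arrays of successive times did not overlap from 3 h on, and most of the rise came after 14 h (1.05 and 0.96 for the last steps). The 30 h rise was 2.88 ± 0.0815, or 7.36-fold (adjusted p = 4.22e-14). Slc16a11, the gene beside it on chromosome 11 in RefSeq's GRCm38.p6 annotation, read 3.18 ± 0.228 at 0 h and 3.40 ± 0.225 at 30 h (SD, n = 3), a difference of 0.23 (adjusted p = 0.151). Slc16a10, which carries aromatic amino acids and thyroid hormone, rose at each time against 0 h, from 8.78, 8.52 and 8.57 to 9.09, 9.23 and 9.28 at 3 h and 10.51, 10.28 and 10.36 at 30 h (1.76). Slc16a6, also of this family, rose by 1.251. The SLC20 phosphate importers split: Slc20a1 fell at 3 h (-0.34; adjusted p = 0.642 under equal hybridisation controls) and rose by 0.87 at 30 h, whereas Slc20a2 fell (-1.16), although another of its probe sets was called the opposite way (0.36).

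Carriers of organic ions, bile acids, amines and fatty acids had 12 higher and 3 lower of 17 tested (35 measured; all genes 36.6% and 33.0%; the difference was not tested), and 12 and 3 or 12 and 2 under the other scalings. Within SLC22, 8 of 9 were higher and 1 lower under each scaling, with limits for some of the 8. Slc22a14 and Slc22a12 passed the filter on 5 and 8 arrays only, through arrays at which they were high, so their rises are tied to the filter. Another probe set of Slc22a12 had a difference of 0.03 and was not called. Slc22a18 rose by 0.34, but another of its probe sets was called the opposite way (-0.46). Slc22a4, the ergothioneine carrier OCTN1, read 6.13, 6.01 and 5.86 at 0 h, 5.16, 5.40 and 5.29 at 3 h and 5.90, 5.79 and 6.07 at 7 h. It read 6.95, 6.94 and 6.76 at 14 h, 7.31, 7.51 and 7.25 at 21 h and 7.87, 8.07 and 8.06 at 30 h. The 3 h arrays lay below 0 h and those from 14 h above; the change was -0.72 at 3 h (adjusted p = 6.62e-05) and 2.0004 ± 0.099 at 30 h (adjusted p = 2.98e-11). Its relative Slc22a5, the carnitine importer OCTN2, fell (-0.91). Slc22a23, an orphan, rose by 0.98.

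Promoters of Slc22a4 and Slc46a3 are shown as examples of the other motifs searched. That of Slc22a4 lies at chr11:54028055-54028354 and holds the E-box CACGTG, in capitals, 228 bases before the start. That of Slc46a3 lies at chr5:147894766-147895065 and holds GGGGGCGG, which is CCNCNCCC (a CACCC or GC box of the KLF and SP factors) on the other strand, 127 bases before the start. Both are minus-strand genes, on GRCm38.p6 from RefSeq.
Slc22a4: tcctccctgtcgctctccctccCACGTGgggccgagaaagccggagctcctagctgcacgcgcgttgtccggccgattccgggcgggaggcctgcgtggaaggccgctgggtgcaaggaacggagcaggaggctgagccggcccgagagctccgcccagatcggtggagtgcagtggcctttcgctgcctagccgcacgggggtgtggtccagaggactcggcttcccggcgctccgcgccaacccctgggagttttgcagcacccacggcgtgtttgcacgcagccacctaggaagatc
Slc46a3: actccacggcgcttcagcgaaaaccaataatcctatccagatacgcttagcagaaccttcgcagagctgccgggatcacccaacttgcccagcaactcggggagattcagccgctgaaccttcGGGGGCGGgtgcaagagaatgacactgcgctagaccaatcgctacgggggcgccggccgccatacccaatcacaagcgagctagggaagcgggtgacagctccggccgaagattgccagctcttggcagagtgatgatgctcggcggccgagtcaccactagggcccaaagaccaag
CACGTG was in 14.3% of the 161 promoters against 7.15% of all, in 20.0% of those of genes higher at 30 h and in 10.2% of those of genes lower. Counted by gene, since some genes have several starts, it was in 22.6% of the higher and 16.7% of the lower genes, against 8.09% of all. CCNCNCCC was in 68.9% against 49.5% of all, and in 68.3% and 72.9% of those of the higher and lower genes. These shares were not tested.

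The vesicular amine carriers Slc18a1 and Slc18a2, which load monoamines such as serotonin and histamine, differed. Slc18a1 read 4.97, 4.69 and 4.91 at 0 h, 5.41, 5.30 and 5.31 at 14 h, 6.57, 6.29 and 6.26 at 21 h and 7.39, 7.13 and 7.42 at 30 h, above 0 h on every array from 7 h (2.46, adjusted p = 2.72e-12). Slc18a2 read 5.63, 6.00 and 5.23 at 0 h, 6.53, 6.44 and 6.31 at 3 h and 5.35, 5.28 and 5.02 at 30 h. It rose at 3 h (0.81, adjusted p = 0.00332), with arrays above all those at 0 h, and differed from 0 h by -0.46 at 21 h (adjusted p = 0.0347), where the arrays overlap; at 30 h the difference was -0.40 (adjusted p = 0.0545), and -0.60 (adjusted p = 0.00551) without array 3 of 0 h. Slc18a2 is used by mast cells, whose marker list fell over the same hours as given above; the part of that in this result was not tested. Slc10a1, a bile acid importer, fell by 1.62, with wide spread at 0 h (6.98, 7.30 and 6.25) and no overlap with 5.45, 5.48 and 4.74 at 30 h. Slc10a3, an orphan of that family, fell at 3 h (-0.43; adjusted p = 0.419 under equal hybridisation controls) and rose by 0.99 at 30 h.

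**Figure D4:**
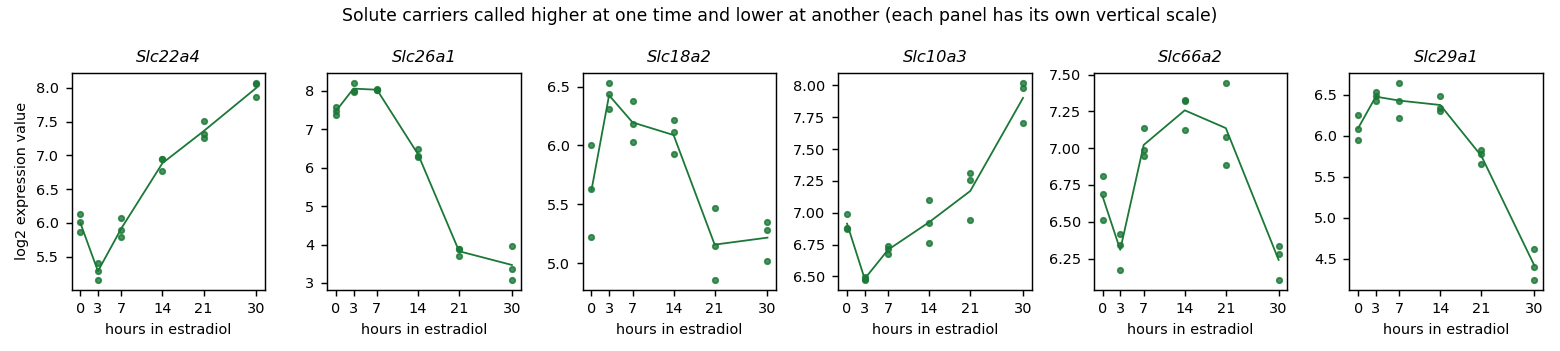
Deposited log2 value on each array (points, 3 per time) and mean (line) against hours in estradiol for the 6 carriers with the largest changes in both directions relative to 0 h; each panel has its own vertical scale. Slc22a4 changes by -0.72 at 3 h and ends 2.0004 above its start, Slc26a1 rises by 0.59 at 3 h and changes by -4.002 at 30 h.

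In all, 9 carriers were called higher than 0 h at some time and lower at another: Slc10a3, Slc18a2, Slc19a2, Slc20a1, Slc22a4, Slc26a1, Slc29a1, Slc40a1 and Slc66a2. The share of all tested genes called in both directions was not counted. Slc66a2, a relative of the lysosomal amino acid exporters, read 6.69, 6.51 and 6.81 at 0 h, 7.12, 7.32 and 7.33 at 14 h and 6.33, 6.11 and 6.28 at 30 h. It was 0.59 higher at 14 h (adjusted p = 0.00101), above all 0 h arrays, and fell to -0.43 at 30 h (adjusted p = 0.00578), below them all; the 30 h call was lost after quantile normalization (adjusted p = 0.0751) and under equal hybridisation controls (adjusted p = 0.314). Slc19a2, a thiamine carrier, was lower at 21 h (-0.30) and higher at 30 h (0.18; adjusted p = 0.0809 under equal hybridisation controls).

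Nucleotide sugar carriers of the Golgi (SLC35) and the acetyl-CoA carrier Slc33a1 made up 6 tested genes, of which 1 rose and 2 fell (all genes 36.6% and 33.0%). Slc35a1, the CMP-sialic acid carrier, went from 7.61, 7.60 and 7.72 to 6.68, 6.58 and 6.72, without overlap (-0.98, adjusted p = 1.32e-07). Slc35a4 fell (-0.51; adjusted p = 0.160 under equal hybridisation controls) and Slc35a5 rose by 0.30 (adjusted p = 0.0109), a call lost without array 1 of 0 h (adjusted p = 0.0573) or when its probe sets were averaged (0.02, adjusted p = 0.816). Of 7 tested genes of nucleotide sugar use (8 listed), 3 rose and 3 fell; Cmas, which makes CMP-sialic acid, rose by 1.74 and the fucosyltransferase Fut8 fell (-2.11). For Slc35a3, the UDP-N-acetylglucosamine carrier, the brightest probe set had a difference of 0.16 (limma adjusted p = 0.185). Another had 0.17 and was not called either, while 2 others gave 1.39 and 1.01.

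Of the 5 carrier-named genes that are no carriers, 2 rose and 2 fell. Slc9a3r1, a scaffold protein that binds a sodium-proton exchanger, went from 11.09, 11.19 and 11.47 at 0 h to 10.06, 10.02 and 10.15 at 14 h and 10.32, 10.04 and 10.31 at 30 h, with every later array below 0 h (-1.02 at 30 h). Slc2a4rg-ps fell (-0.87) and Slc7a6os rose by 0.57, beside a difference of -0.20 (adjusted p = 0.123) for the neighbouring carrier gene Slc7a6.

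Between neighbouring times, 25 of the 159 genes rose and 6 fell from 3 h to 7 h (all genes 9.80% and 5.14%), 22 and 21 from 7 h to 14 h (11.5% and 10.8%), 31 and 24 from 14 h to 21 h (15.7% and 17.5%) and 33 and 23 from 21 h to 30 h (18% and 22.5%). Under equal hybridisation controls these counts were 4 and 1, 23 and 2, 3 and 25, and 31 and 8, so the balance of rises and falls within a step depended on how arrays were scaled. The 6 falls from 3 h to 7 h became 2 without array 3 of 3 h or array 1 of 7 h, 3 without array 2 of 3 h or array 2 of 7 h, and 4 without either of the others. Slc52a3 led the rises of the first 3 of these steps, by 1.10, 2.46 and 1.52, and Slc16a13 the last (0.96). The largest called falls were those of Slc19a1 from 3 h to 7 h (-0.42), Slc26a1 from 7 h to 14 h (-1.68) and from 14 h to 21 h (-2.52) and Slc19a1 from 21 h to 30 h (-1.42). Slc29a1 had its largest step in the last interval (-1.33).

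Signal strength moved with the share called. The median signal of all tested genes was 7.53, and 44 of the 159 genes lay above it and 115 below. Of the brighter 44, 88.6% were called at 30 h against 81.9% of all brighter genes, and of the dimmer 115, 64.3% against 57.2%. Of the brighter 44, 24 rose and 15 fell (all brighter genes 39.1% and 42.8%). Of the dimmer 115, 46 rose and 28 fell (all dimmer genes 34.0% and 23.1%). For comparison, 17 of 39 tested SLC25 genes rose and 15 fell, and 9 of the 17 tested carriers that were left out by name rose and 5 fell; differences between these sets and the 159 were not tested.

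At the edge of the filter, the genes just inside it were Slc9a3, Slc30a3 and Slc1a6, whose deciding value (the highest array but 2, minus that array's percentile) was 0.0113, 0.0123 and 0.0144, and those just outside were Slc5a11, Slc27a5 and Slc39a5 at -0.0085, -0.0123 and -0.0495. Of the 99 genes that did not pass, 80 were above the percentile on no array; 118 of the 159 were above it on all 18. A gene that passed on a few arrays only, as 41 did on 3 to 17, could have passed through the times at which it was high; these genes made up 14 of the 70 rises and 5 of the 43 falls at 30 h. Where several probe sets of a gene were tested, 57 genes in all, 44 of them were called at 30 h, 23 with all their probe sets called the same way and 4 with probe sets called in opposite directions (Slc10a7, Slc20a2, Slc22a18 and Slc39a9).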

How the data were processed

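Expression was measured on 18 Affymetrix mouse arrays, 3 at each of 6 times. The authors deposited log2 values for 45101 probe sets; their summary and normalization method was not found in the labels or headers. Genes were named from the platform annotation: 34958 probe sets had 1 gene, 932 several and 9211 none, and those with several or none were not used. For each of 18194 genes the probe set brightest on average was kept. A gene was tested if 3 or more arrays held it above their 40th percentile, and 12720 genes were.

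Times were compared with limma 3.58.1 in R 4.3.3 (lmFit, contrasts, eBayes, 12 residual degrees of freedom), with Benjamini-Hochberg adjustment over all 12720 genes and calls at adjusted p under 0.05, for 9 comparisons and the F test over time. The precision is limited by 3 arrays a time. The genes, substrate classes, partner genes and marker lists were chosen with earlier results of these data known; classes follow family numbers.

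Named genes were, among those called with no overlap of arrays, the 12 largest rises and 12 largest falls at 30 h, the 4 at 3 h and the 3 of each later step. Up to 3 of each class and 2 of each partner list were added by the size of the 30 h change, called or not. The 6 largest called in both directions were added without the condition on overlap. Others named in the text were chosen after their values were seen. Alternatives were quantile normalization, a shift to equal means of 18 hybridisation control probe sets, other filters, other probe set choices, another variance model, a replicate block, fits of only the arrays compared and leaving out each array. The calling step was checked on simulated data. Replicate numbers showed no clear pairing of arrays across times. Over 45 same-number pairs the correlation of deviations ran from -0.17 to 0.19, with a median of 0.03 and 7 over 0.1. Pairs with different numbers had a median of -0.0056. With 3 arrays a time these correlations cannot show whether arrays shared a culture. Promoters were taken from a RefSeq table on GRCm38.p6. Other reference coordinates were not used, since no build is named by the deposited values.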

Additional observations from a re-analysis of the deposited data

How the results depend on the processing

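Of 1093 recomputed values of 73 named results, 1059 kept their direction and side of the threshold, 28 lost the call, 5 gained it and 1 reversed: Slc22a18 at 30 h changed to -0.0570 (adjusted p = 0.675) when a gene's probe sets were averaged. Of 19 counts of genes recomputed 296 times, 279 stayed within 1.5 times. Shifting arrays to equal hybridisation controls gave 8 higher and 4 lower at 3 h, 11 and 10 at 7 h, 17 lower at 14 h, 4 higher and 1 lower from 3 h to 7 h, 2 lower from 7 h to 14 h, 3 higher from 14 h to 21 h and 8 lower from 21 h to 30 h. The fall count from 3 h to 7 h was 3 with no filter and 15 with only the arrays of these times. With a 60th percentile filter, which tests fewer genes (89 of the 159), 42 were higher at 30 h. The cause of the other moves was not tested. Leaving out each array in turn, the 3 h to 7 h falls ran from 2 to 4 and the 30 h rises from 64 to 71. With the replicate number as a block the 30 h counts were 72 higher and 44 lower. The block ended the call of Slc22a18 from 3 h to 7 h (limma adjusted p = 0.0551) and gave one to Slc18a2 at 30 h (limma adjusted p = 0.0175). It changed no other named call, and the numbers showed no clear pairing of the arrays. The 3 arrays a time limit what can be seen of small changes.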
